A study of Mus musculus with 12 samples.

Results

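Cells handle zinc with 3 groups of proteins, and 10 of their genes are described here: the exporters Slc30a1, Slc30a4, Slc30a5, Slc30a7 and Slc30a10, the importers Slc39a1, Slc39a10 and Slc39a14, and the metallothioneins Mt1 and Mt2. They were taken by symbol from 27588 genes that could be matched between the count tables. The 10 were chosen by family with their counts and CPM (counts relative to the library's scaled size) over the 4 groups already known, and Slc30a4 was selected on its counts in the vehicle libraries. The p-values given for the other genes describe these libraries and are not independent of that choice. After low genes were filtered out, 13945 genes were tested, 9 of the 10 among them. The values come from bulk RNA sequencing of 12 libraries labelled as monocytes, blood-derived precursors of macrophages, from the meninges, the membranes around the brain, of male C57BL/6J mice. There were 4 groups with 3 libraries each. The psilocybin, MDMA and vehicle groups had all been restrained for 18 days and then dosed, and their tissue was taken 24 hours after dosing. The unstressed group had neither restraint nor any dosing named in the labels. Psilocybin is converted in the body to psilocin, which activates serotonin receptors, whereas MDMA acts by releasing serotonin and other monoamines. The sources used here give neither the doses nor the ages of the mice. Nothing in the labels ties the libraries of a group to separate animals, and p-values then measure only the spread between these libraries, which may be technical.

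Zinc is held by a large share of enzymes and transcription factors, and cells keep its free level in the cytosol low. Proteins of the Slc30 family (ZnT) move zinc out of the cytosol, across the plasma membrane or into organelles, and proteins of the Slc39 family (ZIP) move it into the cytosol. Metallothioneins are small cysteine-rich proteins that bind zinc and copper. Their genes, like Slc30a1, are switched on by the zinc-sensing transcription factor Mtf1, and metallothionein genes also respond to glucocorticoids, the hormones released in stress. In macrophages and monocytes, zinc transport and metallothioneins are known to change with activation.

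Libraries differed in depth and in how many genes they detected, and vehicle libraries 1 and 3 stood apart. Gene counts ran between 807725 in vehicle library 2 and 5136953 in MDMA library 3. Of 10584 tested genes that averaged at least 10 CPM, 17% had no count in vehicle library 1, 3% in vehicle library 2 and 20.7% in vehicle library 3. In the other 9 libraries this share was between 0.0661% and 1.47%. Among the 22 tested zinc genes, counting 9 of the 10 described here and 13 of 20 further zinc genes, vehicle libraries 1, 2 and 3 had 3, 2 and 8 at 0, and every other library had 0 of them at 0. All 10 markers of classical monocytes were counted in every group and summed to between 317 and 1430 CPM over the libraries. Those of choroid plexus epithelium, the tissue that secretes cerebrospinal fluid, summed to between 15000 and 141000 CPM. In such bulk libraries, fewer cells of a type and less RNA per cell cannot be told apart. The unstressed libraries were counted with another annotation than the stressed ones, so that difference and the group cannot be told apart in any comparison with unstressed mice.

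**Figure D1:**
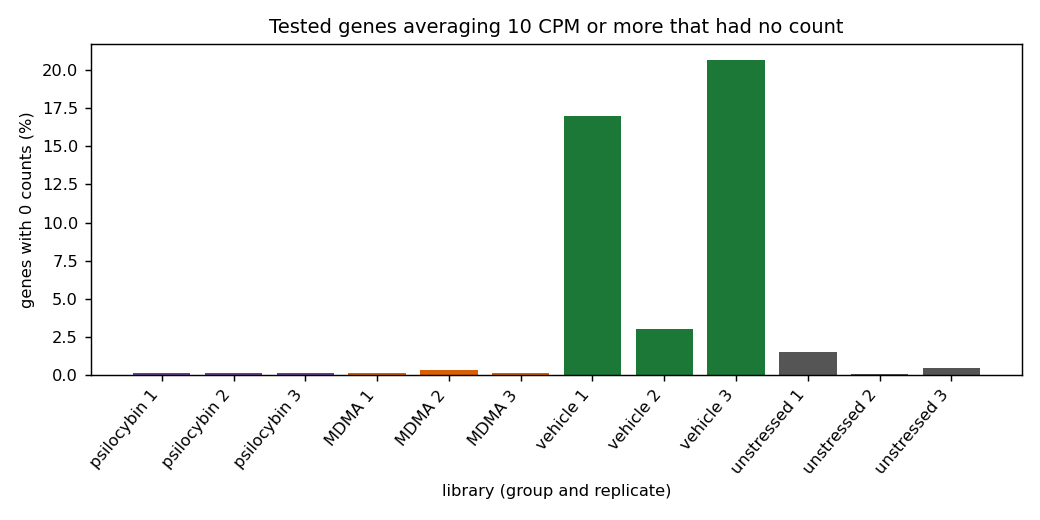
Share of tested genes averaging 10 CPM or more that had no count (y axis, %) in each of the 12 libraries (x axis, bars coloured by group). Vehicle libraries 1 and 3 stand at 17% and 20.7%, vehicle library 2 at 3%, and the other 9 libraries at 1.47% or less.

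The exporter Slc30a4 (ZnT4), which loads zinc into vesicles and is known from milk secretion in the mammary gland, had the most extreme pattern of the 10 genes, and it was listed with this pattern known. Its values are therefore given without a test. The psilocybin libraries had 40.6, 49.2 and 42.2 CPM, from 127, 129 and 178 counts. The MDMA libraries had 35.9, 112 and 43.8 CPM, from 138, 293 and 247 counts. The vehicle libraries had 0 counts in all 3, and the unstressed libraries had 94.1, 69.5 and 114 CPM, from 276, 288 and 492 counts. No vehicle library reached any library of another group, and in vehicle libraries 1, 2 and 3 a level of 3 counts would have stood at 0.92, 3.39 and 2.21 CPM. Against a floor of 3 counts over the vehicle group, the level was at least 79.9-fold higher with psilocybin and at least 103-fold higher with MDMA. The vehicle group was on the same floor at least 170-fold lower than the unstressed group. These floors cover counting error only and not the spread between libraries, and the reads carried no molecular identifiers.

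The 0 counts of Slc30a4 included vehicle library 2, the library with the fewest counts. It lacked 3% of the genes averaging at least 10 CPM. That share was 17% and 20.7% in vehicle libraries 1 and 3, and at most 1.47% outside the vehicle group. With vehicle libraries 1 and 3 left out, the psilocybin group was at least 12.9-fold and the MDMA group at least 16.6-fold higher than vehicle library 2, which was at least 27.3-fold lower than the unstressed group. Of 2456 tested genes whose mean in the unstressed group was at least that of Slc30a4, 6 (0.244%) had 0 counts in all 3 vehicle libraries. Slc30a4 was among the 6, its own mean set the cutoff, and it was listed for its 0 counts. The share therefore describes the libraries and is no test of Slc30a4. For the psilocybin and MDMA groups these numbers were 4 (0.163%) and 5 (0.204%). Among the 413 of these genes with nearly the same exons in both annotations, 1 (0.242%) had 0 counts in all vehicle libraries and 0 in all psilocybin or all MDMA libraries, and that gene is Slc30a4 itself, at chromosome 2, 122681233 to 122702663, minus strand of GRCm38. Its exons not shared with another gene covered 5352 bases in the annotation nearest to that of the stressed libraries and 5482 bases in that of the unstressed libraries. Outside the vehicle group, Slc30a4 was lowest by mean in psilocybin with 44 ± 4.61 CPM, higher in MDMA with 64 ± 42 and highest in unstressed libraries with 92.4 ± 22.1 CPM (SD, n = 3 each). The MDMA range overlapped both neighbours in this order, whereas every psilocybin library lay below every unstressed library.

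The 5 genes whose levels were most like those of Slc30a4 over the 12 libraries, by Pearson's r of log2(CPM + 1) among 11758 genes, were Med12 (0.990), Kctd4 (0.989), Susd5 (0.988), Pcyox1l (0.987) and Cenpj (0.987). They share the libraries and their depth with it, and the vehicle group had only 1 count of Med12, 1 of Susd5 and 0 of the other three.

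**Figure D2:**
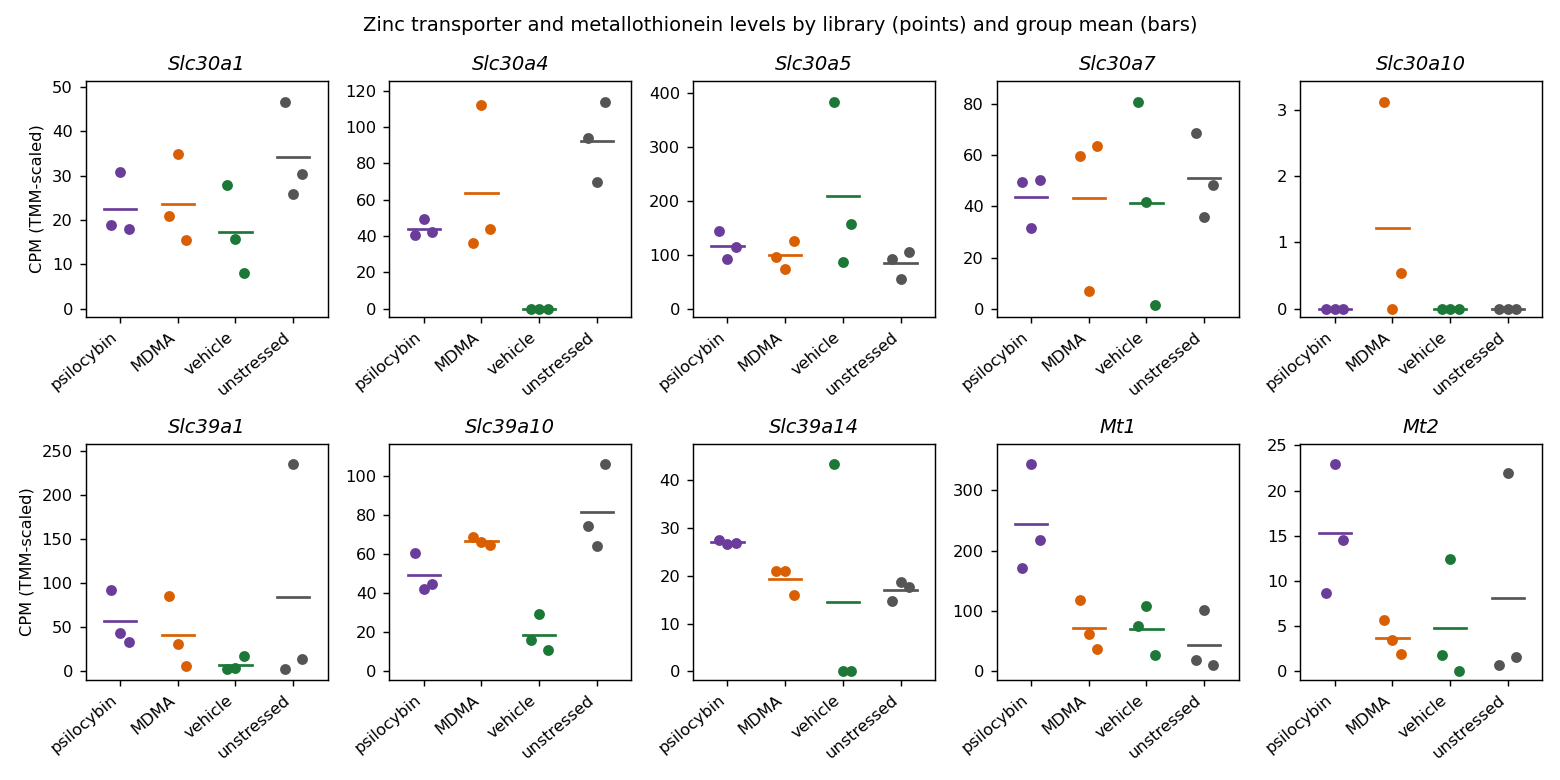
Level of each of the 10 genes (y axis, CPM with TMM-scaled library sizes, own scale per panel) in psilocybin, MDMA, vehicle and unstressed libraries (x axis), with points for libraries and bars for group means. Slc30a4 is at 0 in the 3 vehicle libraries and between 35.9 and 114 CPM elsewhere, and Mt1 is highest in the psilocybin libraries.

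The remaining exporters showed no difference that passed the test in any of the 6 comparisons. Slc30a1 (ZnT1), the main exporter of the plasma membrane, had 18.8, 30.9 and 18.0 CPM in psilocybin, 20.8, 34.9 and 15.4 in MDMA, 27.9, 15.8 and 8.09 in vehicle, and 46.7, 25.8 and 30.3 CPM in unstressed libraries. The groups overlapped throughout, and vehicle library 3 was the lowest of all. Its largest difference was that of vehicle over unstressed, a log2 fold change of -0.98 ± 0.798 (SE, edgeR adjusted p = 0.575).

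Slc30a5 (ZnT5) supplies zinc to enzymes of the secretory pathway. It stood at 144, 91.2 and 115 CPM in psilocybin, 95.3, 73.9 and 126 in MDMA, 383, 85.8 and 157 in vehicle, and 92.4, 55.5 and 105 CPM in unstressed libraries. Vehicle library 1 was far above the rest, and vehicle library 2 lay within the ranges of MDMA and unstressed libraries. The log2 fold change of MDMA over vehicle was -1.09 ± 0.573 (edgeR adjusted p = 0.372), and that of vehicle over unstressed was 1.31 ± 0.576 (edgeR adjusted p = 0.239). Without vehicle library 2, vehicle over unstressed was 1.72 and passed the threshold (edgeR adjusted p = 0.0315), and without vehicle libraries 1 and 3 it was 0.03. Its unshared exons covered 7294 bases in the annotation of the stressed and 3339 bases in that of the unstressed libraries, which bears on every value set against unstressed mice.

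Slc30a7 (ZnT7), a transporter of the early secretory pathway, had 49.5, 31.7 and 50.2 CPM in psilocybin, 59.9, 6.89 and 63.6 in MDMA, 81.0, 41.8 and 1.47 in vehicle, and 68.9, 35.7 and 48.5 CPM in unstressed libraries. MDMA library 2 and vehicle library 3 were low, and all groups overlapped. No log2 fold change of Slc30a7 in the 6 comparisons was larger in size than 0.29, with standard errors of 1.02. Slc30a10 (ZnT10), known in people as a manganese exporter, was close to undetected: MDMA libraries 1 and 3 had 12 and 3 counts, and the other 10 libraries had 0. It did not pass the filter and was not tested.

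Among the importers, Slc39a10 (ZIP10) separated the vehicle libraries from all others by level, though not past the threshold. Slc39a10 is a plasma membrane importer known from B cell and macrophage survival in mice. It had 60.4, 42.0 and 45.0 CPM in psilocybin, 69.0, 66.3 and 64.5 in MDMA, 16.3, 29.3 and 11 in vehicle, and 74.7, 64.4 and 106 CPM in unstressed libraries. The highest vehicle library lay below the lowest library of each other group. The log2 fold change over vehicle was 1.39 ± 0.617 for psilocybin (edgeR adjusted p = 0.289) and 1.83 ± 0.624 for MDMA (edgeR adjusted p = 0.141), and that of vehicle over unstressed was -2.12 ± 0.629 (edgeR adjusted p = 0.0772). Leaving out vehicle library 2 brought all 3 past the threshold, with log2 fold changes of 1.78, 2.28 and -2.53 (edgeR adjusted p = 0.0428, 0.0168 and 0.0107). Leaving out vehicle library 3 did so for vehicle over unstressed (-1.85, edgeR adjusted p = 0.0445). Against vehicle library 2 alone, with vehicle libraries 1 and 3 left out, the log2 fold changes were 0.77 for psilocybin, 1.21 for MDMA and, for vehicle over unstressed, -1.47 (edgeR adjusted p = 0.562, 0.308 and 0.133). DESeq2 called MDMA over vehicle (1.71, adjusted p = 0.00923) and vehicle over unstressed (-1.97, adjusted p = 0.00139).

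Slc39a1 (ZIP1), a widely expressed importer of the plasma membrane, varied widely within groups. It had 92.9, 43.9 and 33.7 CPM in psilocybin, 85.9, 31.0 and 5.67 in MDMA, 2.76, 3.39 and 16.9 in vehicle, and 3.07, 235 and 13.9 CPM in unstressed libraries. Within the unstressed group the highest library was 76.7-fold above the lowest. Each psilocybin library lay above each vehicle library, with a log2 fold change of 2.89 ± 1.4 (edgeR adjusted p = 0.334), and the other comparisons overlapped. The exons of Slc39a1 were nearly the same in both annotations, with 2364 and 2359 unshared bases.

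Slc39a14 (ZIP14), an importer of zinc, iron and manganese known for its induction in the liver during inflammation, was steady in 3 groups and uneven in the vehicle group. It had 27.5, 26.7 and 26.8 CPM in psilocybin, 21.1, 21.1 and 16 in MDMA, 43.3, 0 and 0 in vehicle, and 14.7, 18.6 and 17.6 CPM in unstressed libraries. Every psilocybin library lay above every MDMA and every unstressed library, while vehicle library 1 was the highest of all and vehicle libraries 2 and 3 had no count. The log2 fold change of psilocybin was 0.48 ± 1.32 over MDMA and 0.67 ± 1.33 over unstressed (edgeR adjusted p = 1 and 0.999). Vehicle over unstressed stood at -0.19 ± 1.32 (edgeR adjusted p = 0.963), but passed the threshold at -8.78 without vehicle library 1 (edgeR adjusted p = 0.0269) and was 0.42 without either of the other vehicle libraries. The fitted values without library 1 rest on a vehicle group at 0 and are no measure of size.

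The metallothioneins Mt1 and Mt2 are neighbours on chromosome 8 of GRCm38, plus strand, at 94179082 to 94180327 and 94172664 to 94173568. Their coding sequences, shown without the stop codon from GENCODE vM21 transcripts and with cysteine codons in capitals, differ enough to be counted apart but keep the metal-binding cysteines in place:
Mt1: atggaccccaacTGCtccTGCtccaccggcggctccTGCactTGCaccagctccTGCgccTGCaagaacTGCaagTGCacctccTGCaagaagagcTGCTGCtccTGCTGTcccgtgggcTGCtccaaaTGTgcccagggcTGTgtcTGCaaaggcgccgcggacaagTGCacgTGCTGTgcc
Mt2: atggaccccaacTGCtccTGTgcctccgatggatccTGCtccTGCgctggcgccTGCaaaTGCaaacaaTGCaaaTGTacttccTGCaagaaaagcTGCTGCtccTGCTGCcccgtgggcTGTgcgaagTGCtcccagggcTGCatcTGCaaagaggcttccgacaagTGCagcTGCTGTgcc
Each has 183 bases in 61 codons, of which 20 encode cysteine, and all 20 stand at the same positions in both. The sequences are identical at 145 bases (79.2%), and the longest identical run has 20 bases.

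The windows around the starts of both genes hold matches to the motif that Mtf1 is known to bind. They run from 250 bases before to 50 bases after the gene start in RefSeq (GRCm38.p6, plus strand), chr8:94178839-94179138 for Mt1 and chr8:94172368-94172667 for Mt2. Capitals mark each match to TGCACNC or TGCGCNC, the core of a metal response element, on either strand:
Mt1: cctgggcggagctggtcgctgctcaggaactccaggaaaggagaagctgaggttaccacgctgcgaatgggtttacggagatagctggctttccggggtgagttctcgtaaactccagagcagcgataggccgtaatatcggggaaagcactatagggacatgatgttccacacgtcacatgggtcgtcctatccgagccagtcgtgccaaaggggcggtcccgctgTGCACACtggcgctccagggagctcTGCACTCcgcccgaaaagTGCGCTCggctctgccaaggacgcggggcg
Mt2: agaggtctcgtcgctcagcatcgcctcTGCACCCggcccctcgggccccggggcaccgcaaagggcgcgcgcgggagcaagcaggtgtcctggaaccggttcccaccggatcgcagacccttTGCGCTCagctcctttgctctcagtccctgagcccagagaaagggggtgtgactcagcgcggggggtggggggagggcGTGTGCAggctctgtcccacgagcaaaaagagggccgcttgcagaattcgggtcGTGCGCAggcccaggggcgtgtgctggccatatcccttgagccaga
Mt1 has 3 matches and Mt2 has 4, none overlapping another. Of all 32851 windows of this length in the table, 25.7% have at least 1 match, 2.0% at least 3 and 0.5% at least 4. Slc30a4 and Slc30a10 have 3 matches each, Slc30a1 has 2, Slc30a5 has 1, and Slc30a7, Slc39a1 and both windows of Slc39a10 have 0. In Slc30a10, 2 of the 3 matches overlap on opposite strands, at -233 to -227 and -232 to -226. The window of Slc39a14 was not analysed here. The window was widened past the start after the 250 bases before it had been read alone. In those, Mt1 has 1 match and Mt2 has 3, and 21.4% of all windows have at least 1 and 1.3% at least 3. A match is a description of the letters and says nothing of binding in these cells.

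Mt1 was highest in the psilocybin libraries. It had 172, 343 and 218 CPM in psilocybin, 118, 61.7 and 36.5 in MDMA, 75.2, 108 and 27.2 in vehicle, and 19.1, 101 and 10.4 CPM in unstressed libraries. The lowest psilocybin library lay above the highest library of every other group, and the MDMA, vehicle and unstressed groups overlapped. The log2 fold change of psilocybin was 1.76 ± 0.816 over MDMA (edgeR adjusted p = 1), 1.80 ± 0.819 over vehicle (edgeR adjusted p = 0.3) and 2.49 ± 0.837 over unstressed (edgeR adjusted p = 0.455). None passed the threshold. The 95% intervals were 0.17 to 3.36, 0.20 to 3.41 and 0.85 to 4.13. With vehicle libraries 1 and 3 left out, psilocybin over vehicle was 1.20 (edgeR adjusted p = 0.658). MDMA over vehicle was 0.04 ± 0.797 and MDMA over unstressed 0.72 ± 0.798 (edgeR adjusted p = 0.993 and 0.999).

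The choroid plexus marker sum was likewise higher without overlap in psilocybin than in MDMA and unstressed libraries. All 10 markers were counted in every group, and the sum was between 64100 and 127000 CPM in psilocybin, 20800 and 41400 in MDMA, 18800 and 141000 in vehicle, and 15000 and 40700 CPM in unstressed libraries. By library, the sum ordered the MDMA libraries as Mt1 did, with 41400, 33700 and 20800 CPM, and did not in the other groups, with 127000, 64100 and 65300 CPM in psilocybin, 141000, 58900 and 18800 in vehicle, and 40700, 15000 and 40300 CPM in unstressed libraries.

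Markers of astrocytes and neurons ordered the libraries as Mt1 did in the psilocybin, vehicle and unstressed groups but not in the MDMA group. They summed to 272, 1340 and 604 CPM in psilocybin, 519, 694 and 706 in MDMA, 328, 912 and 3.68 in vehicle, and 69.6, 629 and 27 CPM in unstressed libraries. Their group means of 738, 640, 414 and 242 CPM in psilocybin, MDMA, vehicle and unstressed libraries stood in the order of the Mt1 means. Below psilocybin that order of Mt1 is within the spread, with 72 ± 41.6 CPM in MDMA, 70.2 ± 40.8 in vehicle and 43.5 ± 50 in unstressed libraries (SD). Per kilobase of unshared exon, vehicle with 56.4 stood below unstressed with 57.3. Markers of the pineal gland ordered the libraries as Mt1 did in the same 3 groups, with 950, 6480 and 2280 CPM in psilocybin, 1430, 1940 and 2770 in MDMA, 1580, 3480 and 42.7 in vehicle, and 128, 1900 and 21.5 CPM in unstressed libraries. Pineal group means of 3240, 2040, 1700 and 682 CPM stood in that same order of groups. The part of any of these cells in the level of Mt1 was not tested. The lists set beside Mt1 here were chosen from those summed, and so few libraries per group have few possible orders. Red cell markers also matched the order of Mt1 in vehicle (33.7, 56.4 and 0.736 CPM) and unstressed libraries (6.82, 9.41 and 2.77 CPM) but in no drug group. Macrophage markers matched it in MDMA only, neutrophil markers in vehicle only, and monocyte, fibroblast and vessel markers in no group.

 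The genes most like Mt1 over the 12 libraries were Rps21 (Pearson's r of 0.961), Rpl21 (0.957), Rpl36 (0.956), Ubl5 (0.954) and Rpl19 (0.953). All but Ubl5, which encodes a ubiquitin-like protein, encode ribosomal proteins, and all share the 12 libraries and their depth with Mt1. Mt2 came at rank 151 with an r of 0.834. Rps21 stood at 60.3 CPM by mean in psilocybin, 15 in MDMA, 12.4 in vehicle and 9.96 CPM in unstressed libraries, which is the order of the groups for Mt1.

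Mt2 had far fewer counts than Mt1. It had 8.62, 22.9 and 14.5 CPM in psilocybin, 5.73, 3.45 and 1.95 in MDMA, 1.84, 12.4 and 0 in vehicle, and 0.682, 22.0 and 1.62 CPM in unstressed libraries. Each psilocybin library lay above each MDMA library, with a log2 fold change of 2.04 ± 1.42 (edgeR adjusted p = 1), and all other comparisons of Mt2 overlapped. Psilocybin over vehicle was 1.77 ± 1.45 (edgeR adjusted p = 0.622), and 0.32 with vehicle libraries 1 and 3 left out. Vehicle library 2 and unstressed library 2 were each far above the rest of their group.

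The counts of Mt2 depend on its gene model. In GENCODE vM21 the antisense gene Gm45774, at 94170748 to 94173412 of chromosome 8, covers 432 exonic bases of Mt2 and leaves 156, at 94173413 to 94173568, which hold 12 of the 183 coding bases. In the RefSeq annotation of the unstressed libraries all 556 exonic bases of Mt2 are its own. Summed over the libraries of a group, Mt1 and Mt2 had 2359 and 148 counts with psilocybin, 819 and 42 with MDMA, 378 and 17 with vehicle, and 520 and 100 in unstressed mice. Mt1 thus had 15.9, 19.5 and 22.2 times the counts of Mt2 in the psilocybin, MDMA and vehicle groups and 5.2 times in the unstressed group. Gm45774 itself had 38 counts in the psilocybin, 27 in the MDMA and 3 in the vehicle group. The sources used here do not say whether reads in the shared bases were dropped for the stressed libraries. For Mt1 the unshared exons were 1246 bases in GENCODE vM21 and 760 in RefSeq.

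**Figure D3:**
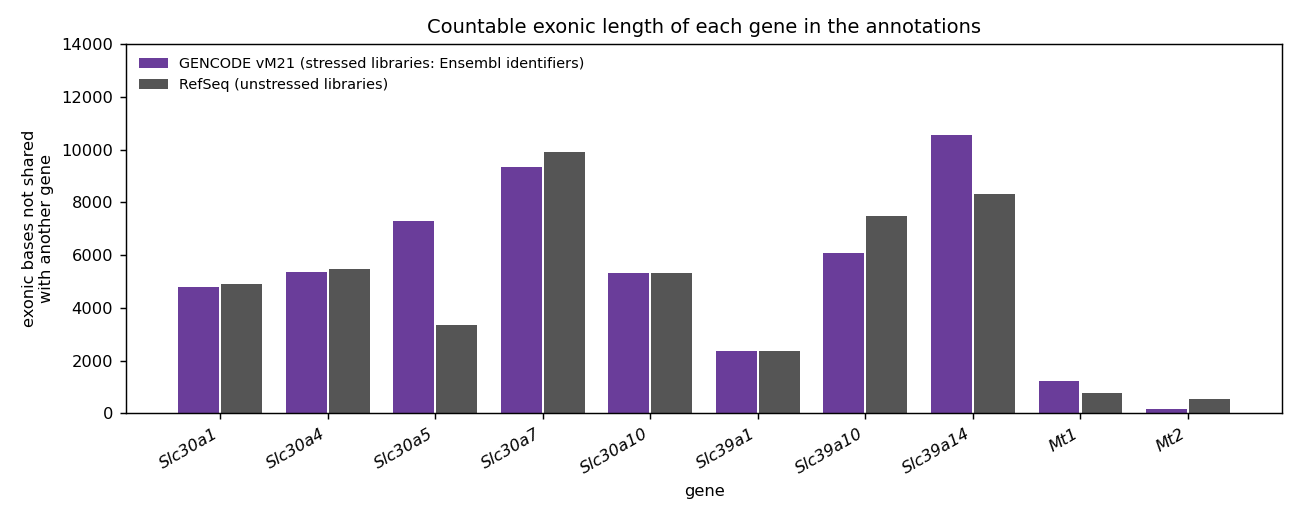
Exonic bases not shared with another gene (y axis) for each of the 10 genes (x axis) in GENCODE vM21, the annotation nearest to that of the stressed libraries, and in RefSeq, that of the unstressed libraries. Slc30a4 and Slc39a1 have almost the same length in both, Slc30a5 has 7294 against 3339 bases, and Mt2 has 156 against 556.

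Per kilobase of unshared exon, Mt1 was the most abundant of the 10 in every group, with group means of 196 CPM per kilobase in psilocybin, 57.7 in MDMA, 56.4 in vehicle and 57.3 in unstressed libraries. Mt2 is given no further place in this order, since the length over which its reads were counted in the stressed libraries is not known. Among the transporters, Slc39a1 came first in psilocybin (24) and MDMA (17.3) and in unstressed libraries (35.7 CPM per kilobase), and Slc30a5 in vehicle libraries (28.6 CPM per kilobase). Leaving aside Slc30a10, and Slc30a4 in the vehicle group, Slc39a14 was the lowest transporter by mean, with 2.56 in psilocybin, 1.84 in MDMA, 1.37 in vehicle and 2.03 CPM per kilobase in unstressed libraries. The places of Mt1 and of Slc39a1 in unstressed libraries rest on library 2. The 3 unstressed libraries had 25.1, 133 and 13.7 CPM per kilobase of Mt1 and 1.30, 99.8 and 5.88 of Slc39a1. Slc30a5 had 27.7, 16.6 and 31.4 CPM per kilobase in them. In MDMA the place of Slc39a1 rests on library 1, with 36.3, 13.1 and 2.4 CPM per kilobase. There it stood below Slc30a4 in library 2 (21) and below Slc30a5 in library 3 (17.3). In psilocybin library 3, Slc39a1 with 14.2 stood below Slc30a5 with 15.8.

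Set against all genes, the 10 genes held few changes that passed the test. Between psilocybin and vehicle, 2 of 13945 genes passed (0.0143%), both higher in psilocybin, and 1 of them was Slc30a4, which was listed for that pattern. Psilocybin and vehicle libraries did not overlap for 4 of the 9 tested members, Slc30a4, Slc39a1, Slc39a10 and Mt1, all higher in psilocybin, and for 0 in the other direction, beside 21.1% and 2.71% of all tested genes. The median log2 fold change was 1.39 over the 9 members and 0.31 over all tested genes. Slc30a4 enters both the 4 and this median by its selection, so neither is a test of the members. With the replicate number as a block, 0 genes passed. Without vehicle library 2, 3536 genes passed, among them Slc39a10 and the further zinc genes Slc39a4 and Slc39a11. Without vehicle library 3, 140 passed. Without vehicle library 1, or without any 1 of the psilocybin libraries, 0 genes passed.

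Between MDMA and vehicle, 94 genes passed (0.674%), all higher in MDMA, and the 1 member among them was Slc30a4, listed for its counts in vehicle. Slc30a4 and Slc39a10 did not overlap, both higher in MDMA, beside 16.5% of all tested genes that were higher without overlap and 2.39% that were lower. The median log2 fold change was 0.38 over the members and 0.24 over all tested genes. The selected Slc30a4 is part of both figures, so they are no test of the members. This comparison and that of psilocybin share the vehicle libraries, so their similar values are not independent. Without vehicle library 2, 3613 genes passed, without vehicle library 3 there were 280, and without vehicle library 1 there were 3. Without any 1 of the MDMA libraries, and with the replicate number as a block, 0 genes passed.

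Between vehicle and unstressed, 478 genes passed (3.43%), 31 of them (0.222%) higher and 447 (3.21%) lower in vehicle. The 1 member among them was Slc30a4, lower in vehicle and listed for that pattern. Slc30a4 and Slc39a10 were lower without overlap and 0 members were higher, beside 17.2% and 3.56% of all tested genes. The median log2 fold change was -0.85 over the members and -0.18 over all tested genes. Here too the members without overlap and the median include the selected Slc30a4 and are no test of the members. Without 1 unstressed library, between 8 and 10 genes passed, and 268, 3670 and 987 passed without vehicle library 1, 2 and 3. In a fit of only genes with nearly the same exons in both annotations, 13 of 2450 tested genes passed.

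Between the drug groups and unstressed mice, 0 members passed. In psilocybin 12 genes passed (0.0861%), 4 higher (0.0287%) and 8 lower (0.0574%), and 2 members were higher (Mt1 and Slc39a14) and 2 lower (Slc30a4 and Slc39a10) without overlap, beside 19% and 18% of all tested genes. In MDMA 17 genes passed (0.122%), 5 higher (0.0359%) and 12 lower (0.0861%), and 0 members were higher or lower without overlap, beside 10.9% and 11.5% of all tested genes. Without 1 library of the groups compared, between 3 and 5 genes passed for psilocybin and between 2 and 4 for MDMA. Median log2 fold changes of the members were -0.22 for psilocybin and -0.30 for MDMA, with 0.01 and 0.04 over all tested genes.

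Between psilocybin and MDMA, 0 of 13945 genes (0%) passed with edgeR and 0 with DESeq2, and 81 had an unadjusted edgeR p under 0.05. Mt1, Mt2 and Slc39a14 were higher and Slc39a10 was lower in psilocybin without overlap, 3 and 1 of 9 members, beside 10.3% and 6.27% of all tested genes. The median log2 fold change was 0.25 over the members and 0.02 over all tested genes. The intervals of single genes were wide, as for Slc39a10 (-0.44, 95% interval -1.61 to 0.73), so the absence of calls does not show that the drugs act alike on zinc genes.

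**Figure D4:**
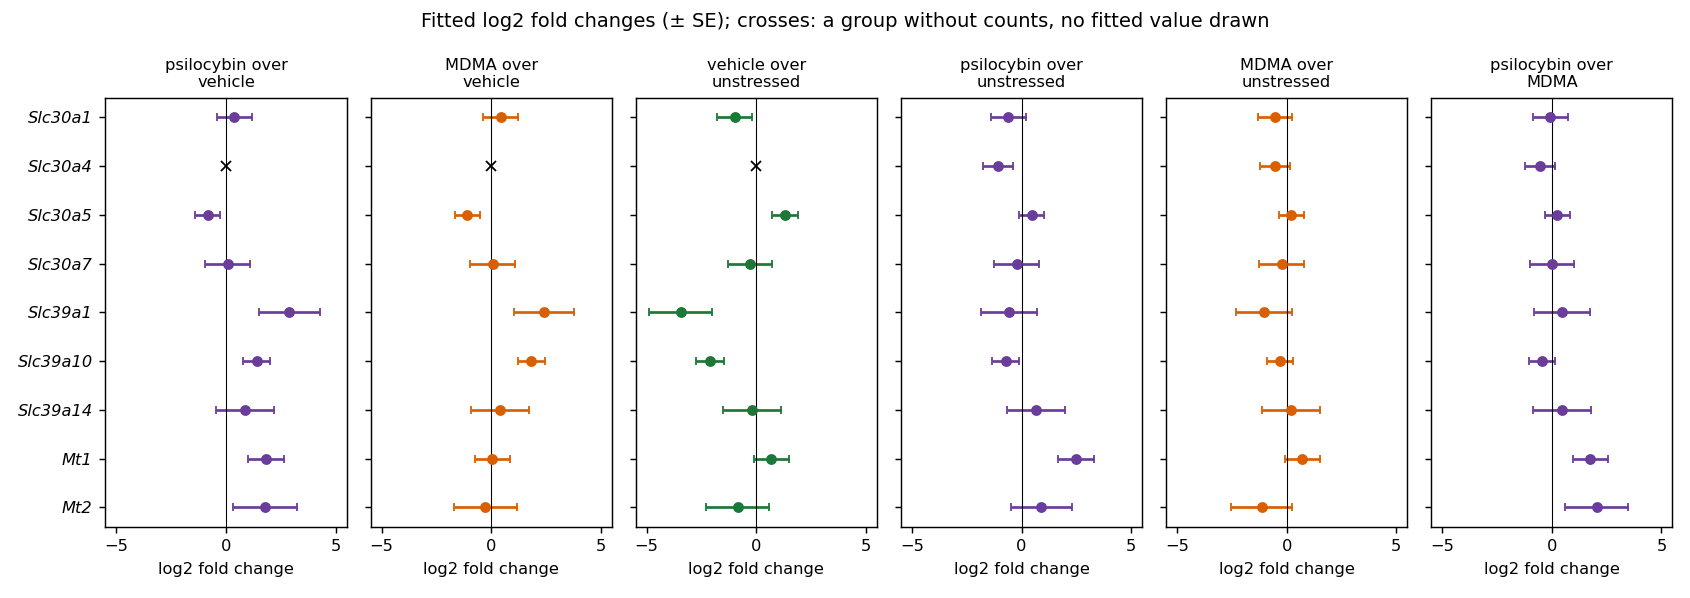
Fitted log2 fold changes (x axis, points, with bars of ± 1 standard error) of the 9 tested genes (y axis) in the 6 comparisons. Crosses mark Slc30a4 where the vehicle group has no count. Mt1 lies above 0 in all 3 comparisons of psilocybin, and Slc39a10 differs in the same way between vehicle and each other group.

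Of 20 further zinc genes, 13 were tested: exporters Slc30a6 and Slc30a9, importers Slc39a3, Slc39a4, Slc39a6, Slc39a7, Slc39a8, Slc39a9, Slc39a11, Slc39a12 and Slc39a13, Mt3 and Mtf1. The list was completed from the gene families with earlier results of these data known. Slc30a8, the zinc transporter of insulin granules, and Mt4 had 0 counts in all libraries. Over the 6 comparisons only Slc39a7 passed, lower in vehicle and in MDMA than in unstressed libraries.

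Slc39a7 (ZIP7) releases zinc from the endoplasmic reticulum. It had 7.34, 6.87 and 4.50 CPM in psilocybin, 3.38, 1.15 and 6.03 in MDMA, 2.45, 2.26 and 0.736 in vehicle, and 255, 115 and 142 CPM in unstressed libraries. The unstressed libraries were far above all stressed ones. The log2 fold change over unstressed was -4.77 ± 0.846 for psilocybin, -5.56 ± 0.878 for MDMA and -6.50 ± 0.944 for vehicle (edgeR adjusted p = 0.0553, 0.0208 and 0.0101). In GENCODE vM21 the gene Gm20427 shares 2084 exonic bases with Slc39a7 and leaves it 500, against 2393 in RefSeq, so this difference and that of the annotations cannot be told apart. The call in MDMA was lost when any 1 library of either group was left out, and that in vehicle without unstressed library 1 or 3. Slc39a7 has no place among the genes with nearly the same exons.

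Mt3, the brain metallothionein, had 96.4, 58.4 and 39.1 CPM in psilocybin, 26.6, 7.28 and 3.72 in MDMA, 48.5, 14.7 and 2.21 in vehicle, and 0.682, 5.55 and 1.85 CPM in unstressed libraries. Psilocybin lay above MDMA and above unstressed without overlap, and overlapped with vehicle. The log2 fold change was 2.37 ± 1.15 over MDMA, 1.55 ± 1.12 over vehicle and 4.55 ± 1.28 over unstressed (edgeR adjusted p = 1, 0.564 and 0.265). Vehicle over unstressed was 3.0 ± 1.2 (edgeR adjusted p = 0.19). DESeq2 called Mt3 in psilocybin over unstressed and in vehicle over unstressed, and edgeR did in psilocybin over unstressed when only these 6 libraries were fitted. Its unshared exons were 1066 bases in GENCODE vM21 and 538 in RefSeq. Mt3 is known to be expressed in astrocytes and neurons, whose marker sums stand beside Mt1 above. All 8 of these markers were counted in every group but Rbfox3, which was at 0 in the vehicle group, and their part in the level of Mt3 was not tested.

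Slc39a12 (ZIP12), an importer known from the brain, had 117, 142 and 103 CPM in MDMA, against 638, 255 and 328 CPM in vehicle libraries. The groups did not overlap, and the log2 fold change of MDMA over vehicle was -1.75 ± 0.627 (edgeR adjusted p = 0.162). Unstressed libraries had 239, 39.1 and 193 CPM, also below each vehicle library. The log2 fold change of vehicle over unstressed was 1.38 ± 0.621 (edgeR adjusted p = 0.25). MDMA and unstressed libraries overlapped, with a log2 fold change of -0.37 ± 0.611 (edgeR adjusted p = 0.999). Psilocybin libraries had 361, 144 and 179 CPM, above each MDMA library, with a log2 fold change of 0.91 ± 0.615 over MDMA (edgeR adjusted p = 1). Slc39a13 (ZIP13), an importer known from connective tissue, had 69.0, 61.4 and 56.9 CPM in psilocybin and 55.2, 23.0 and 72.5 in MDMA, against 72.1, 114 and 137 in vehicle and 203, 92.6 and 177 CPM in unstressed libraries. The psilocybin libraries lay below vehicle and unstressed libraries without overlap, and the MDMA libraries below unstressed ones only. Psilocybin had a log2 fold change of -0.78 ± 0.566 over vehicle and -1.33 ± 0.57 over unstressed (edgeR adjusted p = 0.561 and 0.713). MDMA had one of -1.09 ± 0.569 over vehicle and -1.65 ± 0.575 over unstressed (edgeR adjusted p = 0.363 and 0.569). Slc39a11 (ZIP11) had 17.2, 24.8 and 25.4 CPM in psilocybin, against 0, 15.8 and 0 CPM in vehicle libraries, with a log2 fold change of 2.21 ± 1.56 (edgeR adjusted p = 0.553). MDMA libraries had 22.4, 1.53 and 46.1 CPM, with a similar log2 fold change over vehicle of 2.27 ± 1.56 (edgeR adjusted p = 0.521), though overlapping. Unstressed libraries had 16.4, 20.5 and 8.09 CPM. Mtf1, the zinc sensor that switches on metallothionein genes, was between 30.8 and 38.2 CPM in psilocybin, 26.3 and 94.2 in MDMA, 27.3 and 49.3 in vehicle, and 35.1 and 64.5 CPM in unstressed libraries. Its groups overlapped.

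**Figure D5:**
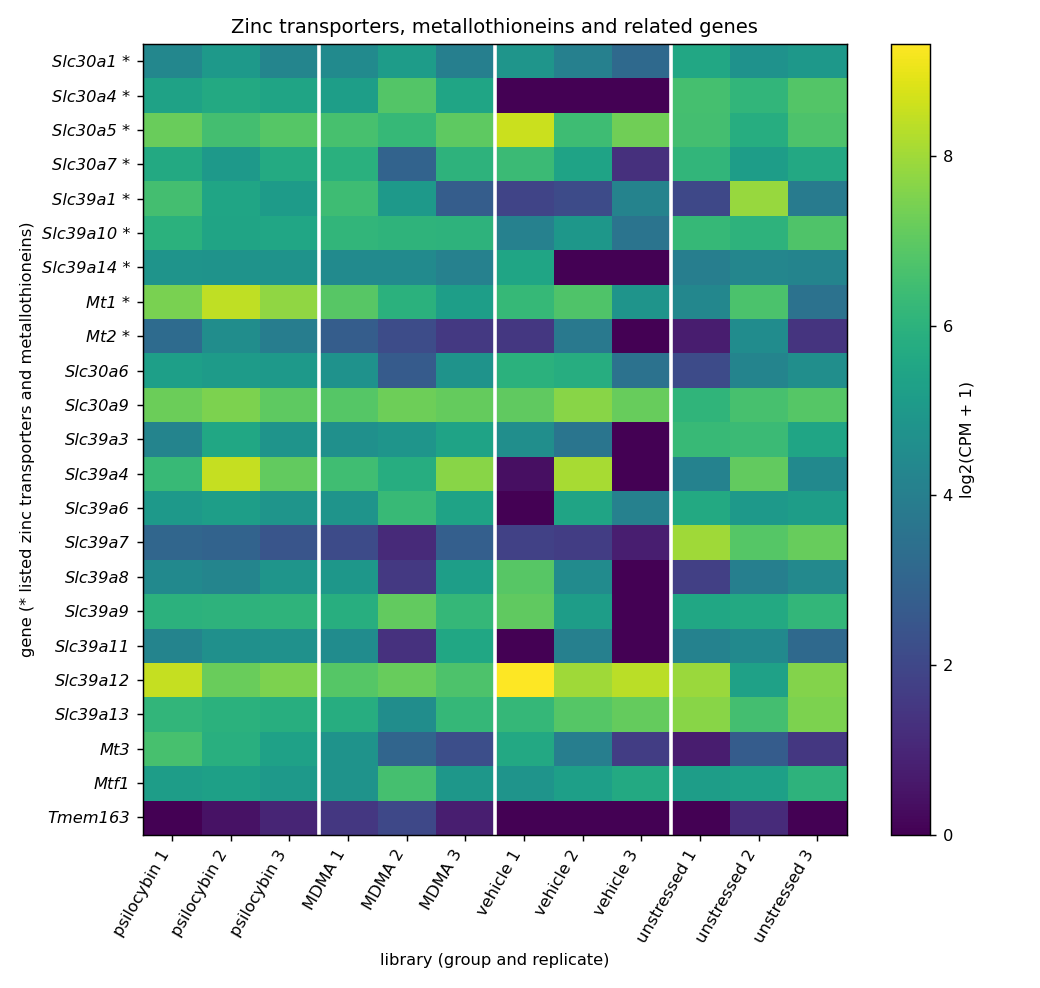
Levels of the zinc genes with over 20 counts in all (rows; asterisks mark 9 of the 10 genes described here) in the 12 libraries (columns, groups separated by white lines), coloured by log2(CPM + 1). The darkest cells in the vehicle columns mark zinc genes at 0. Of the 22 tested these number 3, 2 and 8 in libraries 1, 2 and 3. Tmem163, drawn but not tested, is also at 0 in all 3.

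Since glucocorticoids induce metallothionein genes, 6 other glucocorticoid-induced genes (Fkbp5, Tsc22d3, Per1, Sgk1, Zbtb16 and Klf9) were read in the same fit, and 0 of 6 passed in any of the 6 comparisons. In psilocybin over MDMA, where Mt1 was higher, 1 (Sgk1) was higher and 2 (Tsc22d3 and Zbtb16) were lower without overlap, beside 10.3% and 6.27% of all tested genes. In MDMA over unstressed, all but Per1 were higher without overlap, beside 10.9% of all tested genes. Fkbp5 had 70.6, 183 and 252 CPM in MDMA, against 43.0, 34.0 and 37.0 CPM in unstressed libraries (log2 fold change of 2.15 ± 0.691, edgeR adjusted p = 0.417). Scaled per kilobase of unshared exon, Fkbp5 had 7.45, 19.3 and 26.6 in MDMA against 11.1, 8.76 and 9.52 in unstressed libraries, and overlapped. Tsc22d3 and Klf9 overlapped on that scale as well, and Sgk1 and Zbtb16 did not. The median log2 fold change of the 6 genes was -0.12 for psilocybin over vehicle, 0.61 for MDMA over vehicle and 0.36 for vehicle over unstressed, with 0.31, 0.24 and -0.18 over all tested genes. It was 0.16 for psilocybin over unstressed, 1.20 for MDMA over unstressed and -0.74 for psilocybin over MDMA, with 0.01, 0.04 and 0.02 over all tested genes.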

How the data were processed

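The 12 libraries, labelled as meningeal monocytes of mice, were grouped by title. Per the labels' protocols, cells came from a magnetic monocyte kit and libraries from 5 ng of RNA. All values are counts of reads per gene as deposited by the authors, not normalized. The submitters' processing notes name mm10 and the tools edgeR 3.42.4, featureCounts 2.0.1, STAR 2.7.5c, MultiQC 1.11, FastQC 0.11.9 and fastp 0.23.2, without an order. For the unstressed libraries featureCounts assigned reads to exons of RefSeq genes, per the file headers, and the command there sets neither strandedness nor paired ends, so reads of a gene and its antisense partner cannot be told apart there. The stressed libraries carry versioned Ensembl identifiers, 98.1% of them with the version of GENCODE vM21, and no source used here gives their counting command. In a table covering the series, 9 columns repeated the single files and 3 others matched none of the samples and were not used.

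Genes were matched by symbol and overlapping locus (26664) or by position with a Jaccard index of exons of at least 0.5 (924). Between 94.8% and 99.1% of the counts of a library lay in the 27588 matched genes. Nearly the same exons means a Jaccard index of at least 0.9 and unshared lengths within 1.1 times (7265 genes). Promoter windows are from RefSeq and other positions from GENCODE vM21, counted from 1.

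Counts of all 12 libraries were fitted in edgeR 4.0.16 (R 4.3.3) with TMM scaling, filterByExpr and quasi-likelihood tests, without a replicate block, for 6 comparisons. Adjusted p-values are Benjamini-Hochberg values over 13945 genes with a threshold of 0.05. Standard errors come from the test statistic, and 95% intervals are normal intervals from them. CPM use TMM-scaled sizes. Where a group has 0 counts, a bound is given from 3 counts over that group. Log values for likeness are log2(CPM + 1) over genes averaging at least 5 CPM, leaving out predicted and clone-named genes. The fitting step was tested on simulated data. Precision follows depth, 807725 to 5136953 counts per library.

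The 10 genes, the lists and the tests were chosen with earlier results of these data known. Named are the 10 genes, further zinc genes past the threshold or among the 2 with the smallest p in a comparison, the glucocorticoid-induced genes, and the 5 genes most like Slc30a4 and Mt1. Marker lists for monocytes, macrophages, choroid plexus, fibroblasts, vessels, neutrophils, pineal gland, neural cells and red cells were summed as CPM.

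Psilocybin and vehicle libraries with the same number had weakly correlated deviations from the means of their groups (correlation over genes 0.112, 0.213 and 0.115). The number was therefore tried as a block in an alternative fit, from these correlations and not from any label. The main fit took no pairs, and the correlations do not establish any. Alternatives were DESeq2 1.42.0, its size factors in edgeR, no filter, only the 6 libraries compared, the replicate block, only the 9 stressed libraries with their own annotation, only genes with nearly the same exons, and leaving out each library. Leaving out vehicle libraries 1 and 3 together was added after seeing the data.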

Additional observations from a re-analysis of the deposited data

How the results depend on the processing

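Few counts of calls held under other settings. For psilocybin over vehicle, 1 zinc gene (Slc30a4) and 2 genes in all passed; DESeq2 size factors, only the 6 libraries compared, the 9 stressed libraries alone and the replicate block each gave 0 and 0, DESeq2 gave 1061 genes and no filter 7. For MDMA over vehicle, with 1 and 94, the 6 libraries, the 9 libraries and the replicate block gave 0 and 0, size factors 3 genes, and DESeq2 2 zinc genes (Slc30a4 and Slc39a10) and 1338 genes. For vehicle over unstressed, with 2 and 478, DESeq2 gave 4 and 1750, size factors 300 genes, no filter 291, nearly the same exons 1 and 13, the 6 libraries 0 and 2, and the replicate block 10 genes. For psilocybin over unstressed, with 0 and 12, DESeq2 gave 2 and 246, no filter 1 and 51, nearly the same exons 0 genes, the 6 libraries 4 and 1380, and the replicate block 5 genes. For MDMA over unstressed, with 1 and 17, DESeq2 gave 219 genes, no filter 65, nearly the same exons 0 and 0, the 6 libraries 237 genes, and the replicate block 0 and 5. Psilocybin over MDMA stayed at 0 in every setting. The causes were not tested. The pairing behind the block was read from the data for psilocybin and vehicle only; elsewhere some same-numbered correlations were under 0.1, and the labels give only a shared number.

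Leaving out libraries gave 0 to 4 zinc genes and 0 to 3536 genes for psilocybin over vehicle, 0 to 4 and 0 to 3613 for MDMA over vehicle, 1 to 6 and 8 to 3670 for vehicle over unstressed, 0 and 3 to 5 for psilocybin over unstressed, and 0 and 2 to 4 for MDMA over unstressed. With vehicle libraries 1 and 3 left out, 0 genes passed over vehicle for either drug, and 3 zinc genes and 399 genes for vehicle over unstressed.

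Of the tested log2 fold changes of the 9 genes, 578 values under alternatives kept direction and side of the threshold and 10 came past it. Another 17, all of Slc30a4, the only member that passed in the main fit, no longer passed, and 51 turned sign. Those of Slc30a7 lie near 0: psilocybin over vehicle was -0.08 with DESeq2, -0.08 with its size factors and -0.0046 with 6 libraries, MDMA over vehicle -0.02, -0.02 and, with no filter, -0.01, and psilocybin over MDMA -0.06, -0.06, -0.07 with 6 libraries and -0.03 with 9. Mt1 in MDMA over vehicle was -0.11, -0.11 and, with no filter, -0.01. With the replicate block, Mt2 was 0.84 in MDMA over vehicle and 0.18 in MDMA over unstressed. Ranges with libraries left out that cross 0 were, over vehicle, -1.26 to 0.47 (Slc30a5) and -0.49 to 1.06 (Slc30a7) for psilocybin, and -1.46 to 0.24 (Slc30a5), -0.47 to 1.05 (Slc30a7), -0.20 to 9.07 (Slc39a14, 8.98 without vehicle library 1), -0.56 to 0.49 (Mt1, -0.52 without MDMA library 1) and -1.71 to 1.75 (Mt2, -0.84 without vehicle library 3) for MDMA. For vehicle over unstressed they were -1.26 to 0.29 (Slc30a7), -8.84 to 0.42 (Slc39a14, -8.78 without vehicle library 1) and -2.84 to 1.99 (Mt2, 0.61 without vehicle libraries 1 and 3). For psilocybin over unstressed they were -0.42 to 0.04 (Slc30a7) and -1.16 to 2.72 (Slc39a1), and for MDMA over unstressed -0.56 to 0.29 (Slc30a7), -2.13 to 2.32 (Slc39a1) and -1.63 to 1.69 (Mt2). For psilocybin over MDMA they were -0.42 to 0.28 (Slc30a1), -0.91 to 0.12 (Slc30a4), -0.51 to 0.33 (Slc30a7) and -0.12 to 1.53 (Slc39a1). Size factors moved the median log2 fold change of all genes to 0.119 for psilocybin over vehicle, 0.0998 for MDMA over vehicle and 0.00151 for vehicle over unstressed, against 0.308, 0.241 and -0.182 with TMM. Vehicle library 2 had 807725 counts, so that 3 counts there stood at 3.39 CPM.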

Other observations

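MDMA library 2 was the lowest of the 6 drug libraries for Slc30a7 (6.89 CPM), Slc30a6 (5.36), Slc39a8 (1.92), Slc39a11 (1.53) and Slc39a13 (23.0), and the highest of them for Slc30a4 (112), Slc39a6 (77.4), Slc39a9 (136) and Mtf1 (94.2 CPM). These genes were chosen after their values were seen. Slc39a4 (ZIP4), the importer of intestinal zinc uptake, ranged widely within groups, with 76.6, 364 and 134 CPM in psilocybin, 87.5, 55.2 and 199 in MDMA, 0.307, 272 and 0 in vehicle, and 16.7, 135 and 20.3 CPM in unstressed libraries. In all groups but MDMA, library 2 was the highest for Slc39a4.

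Sums of the other marker lists are given here without a test. Neutrophil markers summed to between 111 and 974 CPM in psilocybin, 608 and 2360 in MDMA, 132 and 181 in vehicle, and 26.6 and 49.1 CPM in unstressed libraries, with Mmp8, Retnlg and Cxcr2 at 0 in the vehicle group. Macrophage markers summed to between 54.9 and 212 CPM in psilocybin, 198 and 454 in MDMA, 54.6 and 537 in vehicle, and 89.7 and 316 CPM in unstressed libraries. Fibroblast markers were at 2240 to 4840, 6570 to 12300, 2120 to 8220 and 3900 to 6490 CPM in psilocybin, MDMA, vehicle and unstressed libraries, and endothelial and mural markers at 2500 to 4970, 3260 to 4270, 3230 to 8220 and 3270 to 6300 CPM. Pineal markers were at 950 to 6480, 1430 to 2770, 42.7 to 3480 and 21.5 to 1900 CPM in the same groups, with Asmt and Gngt1 at 0 in the vehicle group, and red cell markers at 4.58 to 170, 19.5 to 192, 0.736 to 56.4 and 2.77 to 9.41 CPM.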
